A study of Mus musculus with 6 samples.

Results

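The 8 serotonin receptor genes described here are Htr1a, Htr1b, Htr1f, Htr2a, Htr2c, Htr3a, Htr4 and Htr7. They were taken by symbol from the 32285 genes of the count matrices, and 6 further serotonin receptor genes of the same matrices serve only as a comparison. The 8 genes together gave 69165 unique molecular identifiers (UMIs, each standing for 1 captured RNA molecule) in 42597 nuclei, or 350.0 per 1000000 UMIs.

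Nuclei came from the prelimbic cortex (PL), the part of the medial prefrontal cortex that was dissected, of male C57BL/6 mice, and were profiled with a droplet kit that reads the 3′ end of each RNA. RunGH and SedGH animals were group-housed and were reared by mothers with or without a running wheel, and RunSI and SedSI animals had the same kinds of mother but were kept alone after weaning. There were 6 libraries, each pooled from 3 mice: RunGH and SedGH of cohort 1, whose animals had gone through behavioural tests, and RunGH, SedGH, RunSI and SedSI of cohort 2, whose animals had not. Each condition of a cohort was therefore 1 library, and litter and animal cannot be told apart from condition. By the study's account, the males of cohort 1 were picked for their place at the top or the bottom of the dominance order of their own group, so in that cohort the choice of animals cannot be told apart from the maternal environment either. The labels give an age of 21 days (P21) for all libraries, while the study describes adult tissue, with only the SI animals isolated from P21 on.

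Serotonin reaches the cortex in axons of the raphe nuclei of the brainstem, so cortical cells receive the transmitter without making it. Its receptors fall into families by the signal they pass on. Receptors of the 1 family (Htr1a, Htr1b, Htr1f) couple to Gi/o proteins, which lower cyclic AMP and open potassium channels. Htr2a and Htr2c couple to Gq and phospholipase C, Htr4 and Htr7 couple to Gs and raise cyclic AMP, and Htr3a forms an ion channel. Htr3a is well known as a marker of cortical interneurons born in the caudal ganglionic eminence, and Htr2a is the cortical target of classical psychedelic drugs.

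The libraries held 19134955 to 188952936 UMIs, and 4997 to 9936 nuclei of each passed the limits, with a median of 1637 to 6250 UMIs per nucleus. Droplets without a nucleus carried 17.2% and 17.8% as many UMIs as a median nucleus in the libraries of cohort 1 and 4.3% to 7.7% in cohort 2, so free RNA and depth differed between cohorts. Any 2 libraries shared 5 to 22 barcodes. Classes were rebuilt by clustering without any Htr gene, and each carries the name of its markers (layer 2/3-like, near-projecting-like and so on, written below without "-like"). Genes of serotonin neurons were at or near 0: Fev, a transcription factor of these neurons, had 0 UMIs, the transporter gene Slc6a4 had 13, and Tph2, the neuronal enzyme of serotonin synthesis, had 27.

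On the mm10 genome with the GENCODE M21 annotation, Htr1a (ENSMUSG00000021721) lies on the + strand at chr13:105443639-105448122 and has 1 exon. Htr1b (ENSMUSG00000049511) lies on the - strand at chr9:81628291-81633828, where it overlaps the antisense RNA D430036J16Rik. Htr1f (ENSMUSG00000050783) lies on the - strand at chr16:64924729-65105854 and spans 181.1 kb. These 3 genes each carry their coding sequence in 1 exon. Htr2a (ENSMUSG00000034997) lies on the + strand at chr14:74640840-74709494, Htr2c (ENSMUSG00000041380) on the + strand at chrX:146962513-147197277, and Htr3a (ENSMUSG00000032269) on the - strand at chr9:48899213-48911099. Htr7 (ENSMUSG00000024798) lies on the - strand at chr19:35958734-36057507, and the position of Htr4 is given with its values. Htr1a and Htr1b, at 4.5 and 5.5 kb, are the shortest genes of the 8 and Htr2c, at 234.8 kb, is the longest. Reads from introns were counted, and a long gene gives more of them in nuclei, so a level is compared between classes or libraries of 1 gene, and UMI totals below say only how many molecules each gene's values rest on.

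Htr2c is also the host of a cluster of microRNAs, none of which overlaps an exon of a coding Htr2c transcript. They are shown because intronic reads were counted, so the Htr2c values given below include the unspliced transcript that carries these hairpins. The mature microRNAs themselves were not measured. Of 11 mature sequences within the gene in RefSeq (GRCm38.p6, + strand), the -3p arms of 6 hairpins are printed 5′ to 3′ in the order of their position, with the seed (bases 2 to 8, which pair with targets) in capitals. The seeds of these 6 differ from each other. They lie at chrX:147002324-147002345, chrX:147009493-147009514, chrX:147010655-147010676, chrX:147064970-147064991, chrX:147107015-147107036 and chrX:147158281-147158302.
mmu-miR-764-3p: aGGAGGCCauaguggcaacugu
mmu-miR-1912-3p: cACAGAACaugcagugagaacu
mmu-miR-1264-3p: cAAAUCUUauuugagcaccugu
mmu-miR-1298-3p: cAUCUGGGcaacugauugaacu
mmu-miR-1911-3p: cACCAGGCauuguggucucugc
mmu-miR-448-3p: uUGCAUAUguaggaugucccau

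The plot of levels by class gives the pattern of all 8 genes. Levels are UMIs of a gene per 1000000 UMIs of the class in a library (CPM). The libraries are always listed as RunGH and SedGH of cohort 1 and then RunGH, SedGH, RunSI and SedSI of cohort 2. The 13 classes ranked by their median all had nuclei in every library. Smaller classes were not ranked, such as oligodendrocytes, oligodendrocyte precursors and microglia, with as few as 11, 14 and 11 nuclei in a library. Each value is 1 library, and its counting error is in the intervals given where levels are compared.

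**Figure D1:**
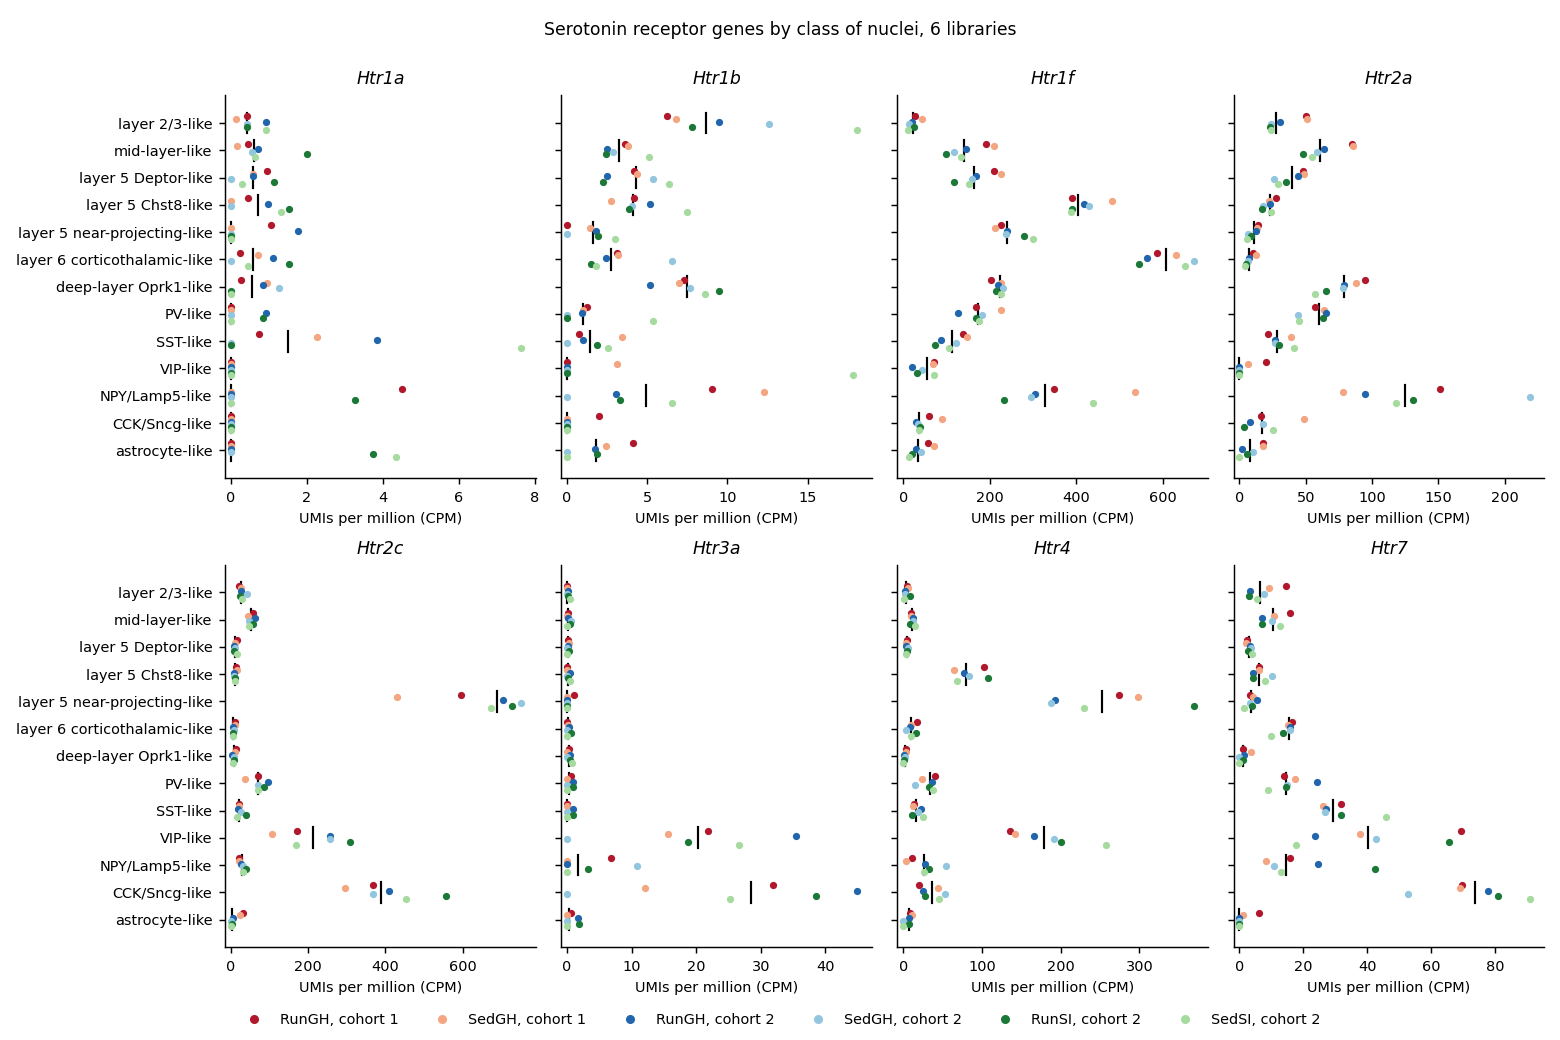
Level of each serotonin receptor gene (CPM, linear axes with a scale of their own for each gene) in 13 cell classes, with 1 point for each of the 6 libraries and a bar at their median. Htr1f was highest in the layer 6 corticothalamic class, at 544 to 672 CPM, and Htr2c and Htr4 were highest in the near-projecting class of layer 5.

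Among the Gi/o-coupled receptors, Htr1f had a laminar pattern, on 43163 UMIs in all. In the corticothalamic class of layer 6, whose axons go to the thalamus, it stood at 586, 631, 563, 672, 544 and 651 CPM. In layer 2/3 it stood at 26.6, 42.6, 20.2, 14.3, 23.7 and 9.88 CPM. All 6 corticothalamic values lay above every value of the other 12 classes, and 31.5% of the gene's UMIs (median of libraries) came from this class, which held 11.3% of all UMIs. Layer 2/3 held 21.1% of all UMIs and gave 1.92% of those of Htr1f.

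Behind the corticothalamic class the order of Htr1f medians was the Chst8 class of layer 5 (405 CPM), the NPY/Lamp5 interneurons (327), the near-projecting class (239), the deep-layer Oprk1 class (223), PV interneurons (172), the Deptor class of layer 5 (164), the mid-layer class (139) and SST interneurons (113). Neighbours in this stretch overlapped over the libraries. VIP interneurons (55.9), CCK/Sncg interneurons (36.9), astrocytes (35.2) and layer 2/3 (21.9) followed, and the SST and VIP ranges did not overlap. NPY/Lamp5 interneurons, which include neurogliaform cells, stood at 349, 536, 305, 295, 232 and 438 CPM. Microglia, a class too small for the ranking, stood at 145 to 282 CPM of Htr1f, and their summed level of 7 pyramidal markers was 1500 to 2050 CPM against 4100 to 4560 in pyramidal nuclei. The part of neuronal RNA in that value was not tested.

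Htr1b, a presynaptic receptor that limits release from axon terminals, gave 948 UMIs in all. Layer 2/3 stood at 6.21, 6.79, 9.48, 12.6, 7.80 and 18.1 CPM and gave 39.8% of its UMIs (median). The next classes were deep-layer Oprk1 (7.5 CPM), NPY/Lamp5 (4.90) and layer 5 Deptor (4.28), and their ranges overlapped with that of layer 2/3. With at least 1000 genes per nucleus the deep-layer Oprk1 class had the highest median instead (8.01 CPM), as it did after clustering of log-normalized counts (9.10 CPM). Htr1b and its antisense partner D430036J16Rik overlap in part, and within the overlap their reads are told apart by strand only.

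Htr1a, the receptor best known on pyramidal cells and at raphe autoreceptors, gave 136 UMIs in all 6 libraries, and no class had a median above 1.5 CPM. SST interneurons were at 0.737, 2.26, 3.85, 0, 0 and 7.65 CPM, which rest on 1, 2, 4, 0, 0 and 3 UMIs. Its level in nuclei was 0.0806 to 0.427 times that of droplets without a nucleus, below 1 in all 6 libraries. No class difference in Htr1a was detectable at this depth.

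Of the Gq-coupled receptors, Htr2a was spread over classes of both kinds of neuron. NPY/Lamp5 interneurons stood at 151, 77.7, 94.6, 219, 131 and 118 CPM. The deep-layer Oprk1 class stood at 95, 87.5, 78.9, 78.2, 65.3 and 57.2 CPM. Mid-layer pyramidal nuclei stood at 84.9, 85.5, 63.4, 58.7, 47.6 and 55.0 CPM and gave 27.7% of the Htr2a UMIs (median) from 15.4% of all UMIs. PV interneurons had a median of 59.8 CPM, layer 5 Deptor 39.5, SST 28.4, layer 2/3 27.3 and layer 5 Chst8 22.8, each overlapping with its neighbours. The corticothalamic class, highest for Htr1f, was near the bottom for Htr2a at 6.9 CPM, and VIP interneurons had a median of 0.

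Htr2c was highest in 3 small classes. The near-projecting class of layer 5, pyramidal cells with local axons, stood at 596, 430.0, 705, 752, 728 and 674 CPM. CCK/Sncg interneurons stood at 367, 295, 409, 368, 558 and 454 CPM. VIP interneurons stood at 172, 107, 256, 256, 309 and 169 CPM, and their range did not overlap with that of PV interneurons, the next class (median 69.6 CPM). The ranges of the first 3 classes overlapped in turn. Near-projecting nuclei gave 40.8% of the Htr2c UMIs and CCK/Sncg interneurons 6.41%, from 2.88% and 0.709% of all UMIs (medians). The mid-layer class and layer 2/3, which are large, gave 16.1% and 12.5% of the Htr2c UMIs at low levels, from 15.4% and 21.1% of all UMIs. The other classes of layer 5 were low, with medians of 11.6 CPM in the Deptor class and 10.7 CPM in the Chst8 class, and the corticothalamic class was at 6.64 CPM.

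Of the Gs-coupled receptors, Htr4 (ENSMUSG00000026322, + strand, chr18:62324204-62496577) was also highest in near-projecting nuclei, at 274, 298, 193, 188, 369 and 230.0 CPM. VIP interneurons stood at 135, 142, 166, 192, 201 and 258 CPM, and the ranges of these classes overlapped. The Chst8 class of layer 5, which carries markers of subcortically projecting cells, stood at 102, 65.0, 76.7, 83.9, 108 and 68.6 CPM. These values lay below every VIP value and above every value of the class that followed in the ranking. Microglia, which were not ranked, stood at 0, 24.6, 37.8, 37.6, 65.7 and 47.9 CPM, on 0 to 21 UMIs. Layer 2/3 stood at 4.76, 5.88, 2.63, 2.11, 7.94 and 0.689 CPM. Near-projecting nuclei gave 26.6% of the Htr4 UMIs from 2.88% of all UMIs, and the Chst8 class gave 35.6% from 10.7% (medians).

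Htr7 was highest in interneurons. CCK/Sncg interneurons stood at 69.7, 68.8, 77.7, 52.6, 80.7 and 90.8 CPM. SST interneurons stood at 31.7, 26.0, 27.0, 26.7, 31.6 and 45.9 CPM, and VIP interneurons had a median of 40.2 CPM between them. These 3 classes overlapped in turn, and SST interneurons did not overlap with the corticothalamic class (15.4 CPM), which had the highest Htr7 median of the pyramidal classes. Near-projecting nuclei, the leading class for Htr4, had a median of 3.51 CPM for Htr7.

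Htr3a, the ion channel subunit, gave 135 UMIs in all. The antisense gene Gm32335 overlaps Htr3a in part, and within the overlap their reads are told apart by strand only. CCK/Sncg interneurons were at 31.9, 12.1, 45.0, 0, 38.6 and 25.2 CPM, from 16, 3, 11, 0, 11 and 5 UMIs, and in the SedGH library of cohort 2 a count of 0 allows a level of up to 52.6 CPM (3 counts). VIP interneurons were at 21.8, 15.7, 35.5, 0, 18.7 and 26.7 CPM. Together these classes held a large part of the gene: 31.8% of the Htr3a UMIs came from CCK/Sncg and 23.1% from VIP interneurons (medians), from 0.709% and 0.602% of all UMIs. NPY/Lamp5 interneurons had a median of 1.64 CPM, and the median of every other class was 0.34 or less.

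The level of each gene in nuclei was also set against its level in droplets without a nucleus, as the plot of nuclei against such droplets gives it. Htr1f (1.39 to 3.58 times) and Htr2a (1.04 to 1.52 times) were higher in nuclei in all 6 libraries. Htr1a, Htr1b (0.499 to 0.79) and Htr3a (0.103 to 0.633), the 3 shortest genes, were lower in nuclei in all 6. Htr2c was at 0.862 and 0.617 times the droplets in cohort 1 and at 1.76 to 1.91 times in cohort 2. Htr4 (1.08 and 0.85 against 1.81 to 2.87) and Htr7 (1.18 and 0.995 against 2.47 to 3.35) were likewise higher in cohort 2 with no overlap, as were Htr1f (1.39 and 1.44 against 2.39 to 3.58) and Htr2a (1.24 and 1.04 against 1.35 to 1.52). Htr1a (0.319 and 0.427 against 0.0806 to 0.21) and Htr3a (0.618 and 0.633 against 0.103 to 0.252) were lower in cohort 2 with no overlap. Of the receptors only Htr1b overlapped between the cohorts. The neuronal markers Slc17a7 (0.502 and 0.866 against 0.317 to 0.372) and Gad1 (0.744 and 0.965 against 0.287 to 0.306) were also lower in cohort 2 with no overlap. Both were below 1 in all 6 libraries, so a ratio below 1 does not show that a gene is absent from nuclei. The share of all genes apart by cohort in this way was not counted.

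**Figure D2:**
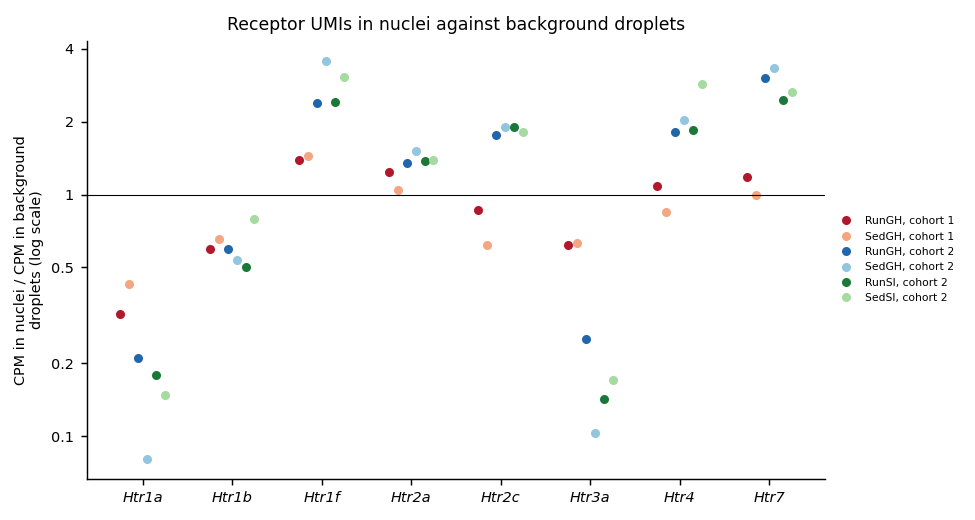
Level of each receptor gene in nuclei divided by its level in droplets without a nucleus (ratio, log axis), with 1 point per library and cohorts marked. Htr1a, Htr1b and Htr3a lie below 1 in all 6 libraries, and the 4 points of cohort 2 lie above those of cohort 1 for Htr1f, Htr2a, Htr2c, Htr4 and Htr7 and below them for Htr1a and Htr3a.

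In single nuclei, shares with at least 1 UMI were compared after each nucleus was thinned to 1000 UMIs. Htr2c was found in 31.8% to 46.9% of near-projecting nuclei (median 42.7%, unthinned 69.1%) and in 0.547% of corticothalamic nuclei (unthinned 2.17%), with median depths of 1209 to 4634.5 and 1540 to 6332 UMIs. Htr1f was found in 44.0% of corticothalamic nuclei (39.7% to 47.3%, unthinned 80.7%) and in 1.98% of layer 2/3 nuclei, where the median depth was 1532.5 to 6706 UMIs. The share in layer 2/3 (0.947% to 3.46%, unthinned 6.52%) was not above that in astrocytes (median 2.87%, 1.63% to 5.49%, unthinned 4.7%, median depth 963 to 4319.5 UMIs). Htr4 was likewise found in 0.263% of layer 2/3 nuclei and 0.529% of astrocytes (unthinned 1.86% and 1.48%). At this depth the UMIs of these genes in layer 2/3 are therefore not read as expression, and their values in that class are given below as measured.

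Htr4 was found in 23.0% of near-projecting nuclei after thinning and in 54.3% before. Htr2a was found in 12.5% of NPY/Lamp5 interneurons (7.14% to 21.6%) against a median of 0.825% in astrocytes, and Htr7 in 8.54% of CCK/Sncg interneurons (7.89% to 14.0%) against 0. Htr3a was found in 3.09% of CCK/Sncg and 2.06% of VIP interneurons and had a median of 0 in PV interneurons, whose depth was 1342.5 to 5610.0 UMIs. The share of nuclei with Htr1b was 1.09% in layer 2/3 (0.674% to 2.41%) and 0.161% in astrocytes.

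Receptors also shared nuclei. At least 1 of the 8 genes was found in 56.8% to 70.0% of near-projecting nuclei after thinning, in 42.7% to 49.0% of corticothalamic nuclei, in 36.8% to 53.3% of CCK/Sncg interneurons and in 8.44% to 12.4% of layer 2/3 nuclei. At least 2 were found in 11.9% to 26.5% of near-projecting nuclei and in at most 0.655% of layer 2/3 nuclei. Without thinning, Htr2c and Htr4 were found in the same near-projecting nucleus in 47.9%, 50%, 24.9%, 14.2%, 50.2% and 38.5% of nuclei over the libraries. The products of their separate shares were 44.2%, 42.9%, 22.1%, 12.3%, 48.6% and 36.7%. The measured share was above the product in each library, and the product lay inside its exact 95% interval in each. Of the 5 pairs of genes followed in this way, each in 1 class, the product lay outside the interval only for Htr1f and Htr2a in mid-layer nuclei, in 2 libraries. They were found together in 9.95% of mid-layer nuclei in RunGH of cohort 2 (8.4% to 11.7%, product 6.85%) and in 9.07% in SedSI (7.07% to 11.4%, product 6.4%). In the other 4 libraries the product lay inside the interval, and nuclei of 1 class differ in depth, whose part in these shares was not tested.

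**Figure D3:**
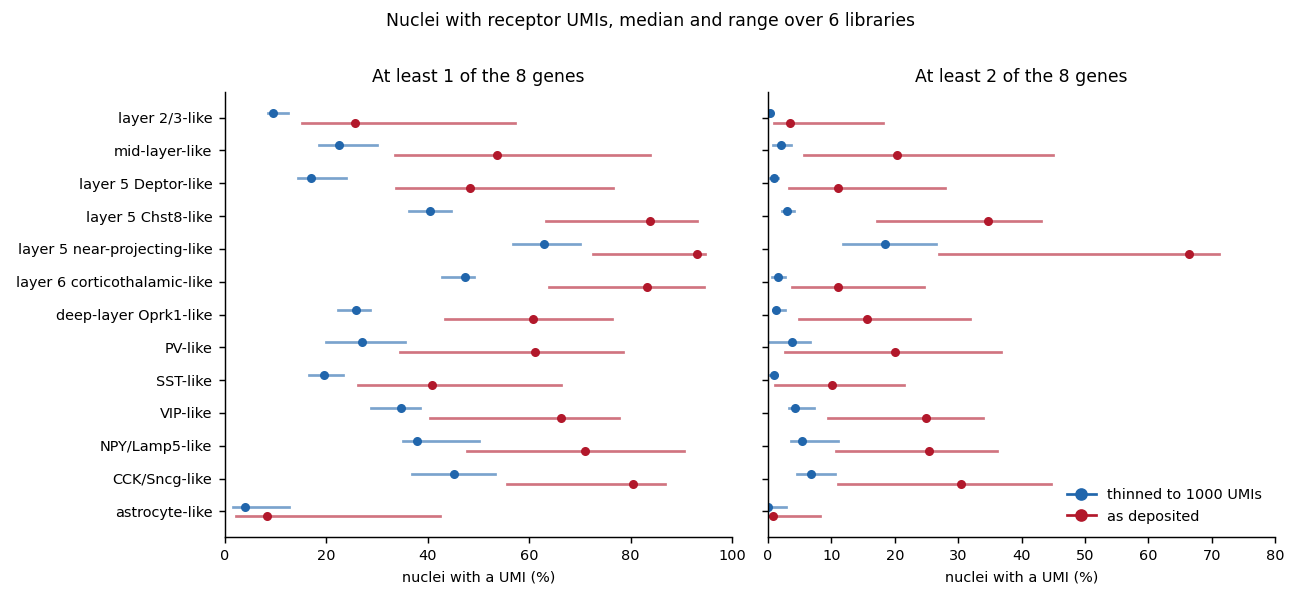
Share of nuclei (percent) with at least 1 (left) or at least 2 (right) of the 8 receptor genes in each class, as the median (point) and range (line) of 6 libraries, after thinning to 1000 UMIs (blue) and as deposited (red). After thinning, near-projecting nuclei lie at 56.8% to 70.0% and layer 2/3 nuclei at 8.44% to 12.4% in the left panel.

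Fixed pairs of broad classes were then compared within libraries, as shown in the plot of class differences. Each value is the mean difference of log2 CPM over 6 libraries (n = 6, SD), with a pseudocount of 0.5 UMI, and the exact sign-flip permutation test (two-sided) cannot go below 0.03125. Of 32 gene comparisons, 18 had UMIs in every library and went the same way in all 6, and so reached that p. None passed this test once adjusted over all genes tested (adjusted p 0.0658 to 0.1441 where a gene was abundant enough for it). All genes at the smallest p share 1 adjusted p in a comparison. No gene could therefore pass, whatever its difference, and this result says nothing of the receptors. The shares of all genes given below for the exact test cover only genes with at least 50 UMIs in the classes compared. A fit of summed counts with the library as a block, in edgeR's quasi-likelihood test with Benjamini-Hochberg adjustment over all genes, was added after the data were seen and called 22 of the 27 comparisons it could test.

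Between pyramidal and inhibitory neurons, Htr1b was higher in pyramidal nuclei in all 6 libraries, by 1.71 ± 1.04 on the log2 scale. Htr3a (-4.76 ± 0.78), Htr7 (-2.06 ± 0.52), Htr2c (-1.05 ± 0.17) and Htr4 (-0.75 ± 0.37) were lower in pyramidal nuclei in all 6. These are sums over unlike classes, since near-projecting nuclei, a pyramidal class, had the highest level of Htr2c and Htr4. Those are 1 of 8 higher and 4 of 8 lower, where 14.4% and 31.4% of all genes went one way in all 6 libraries. In edgeR 2 were higher and 4 lower (24% and 29.4% of all genes): Htr1f (0.58 ± 0.09 SE, adjusted p = 2.28e-05) joined Htr1b (1.60 ± 0.26, adjusted p = 6.06e-05), and Htr7 differed by -1.92 ± 0.16 (adjusted p = 1.91e-08). Htr1f was higher in 5 of 6 libraries, with 220 CPM in pyramidal and 238 CPM in inhibitory nuclei of SedSI. The latter include 120 nuclei without a named subtype, and the named subtypes of SedSI stood at 156 CPM. Htr2a did not pass and differed by -0.30 ± 0.38 (SD), with 5 libraries lower and 1 higher.

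Between all neurons and non-neuronal nuclei, 5 of 8 genes were higher in neurons in all 6 libraries (12.4% of all genes) and none was lower (35%). They were Htr2a (1.94 ± 0.82 SD), Htr2c (1.93 ± 1.28), Htr7 (1.62 ± 0.97), Htr1f (1.61 ± 0.38) and Htr4 (0.92 ± 0.24). In edgeR, 6 of 7 were higher (27.3% of all genes, 29.3% lower), the sixth being Htr1b at 1.21 (adjusted p = 0.0122), which was higher in 5 libraries and stood at 4.49 against 5.15 CPM in RunGH of cohort 1. Astrocytes, the largest non-neuronal class, ranked lowest of the 13 classes for Htr2c and Htr7. Microglia, part of the non-neuronal sum, gave 0, 1, 13, 2, 21 and 5 of its 21, 14, 17, 2, 29 and 5 Htr4 UMIs. As given above, microglia carried pyramidal markers, and the part of neuronal RNA in these differences was not tested.

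Between layer 2/3 and the deep-layer pyramidal classes, Htr1f stood at 319 to 434 CPM in the deep layers (median 341) and Htr4 at 28.3 to 60.9 CPM (35.1), and both were lower in layer 2/3 in all 6 libraries (medians 21.9 and 3.7 CPM). The share of layer 2/3 nuclei with either gene was not above that of astrocytes, so the direction is given and the size of these differences is not. Htr2c was lower (-0.75 ± 0.43) and Htr1b was higher by 1.17 ± 0.45. Those are 3 of 8 lower and 1 higher in all 6 libraries, against 17.7% and 18.9% of all genes. Htr3a, on 24 UMIs here, is among the 8 but too scarce for those shares. The edgeR fit called the same 4 (of 6 tested, 19.4% of all genes lower and 23.4% higher), including Htr1f (adjusted p = 2.53e-12) and Htr4 (adjusted p = 8.56e-11). Htr2a (0.14, adjusted p = 0.232) and Htr7 (0.18, adjusted p = 0.566) did not pass. The median level of Htr2a was 27.3 CPM in layer 2/3 and 28.7 CPM in the deep layers, a mean difference of 0.07 ± 0.27 (SD) on the log2 scale.

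Between VIP with NPY/Lamp5 interneurons and PV with SST interneurons, 4 of 8 genes were higher in the former in all 6 libraries (11.9% of all genes) and none was lower (9.78%). Htr3a, Htr1b and Htr1a, on 42, 28 and 15 UMIs, are among the 8 but fall below the 50 UMIs asked of genes in those shares. Htr3a differed by 4.23 ± 0.80 (on 42 UMIs, with 0 in PV with SST interneurons in 3 libraries, so that its size depends on the pseudocount), Htr4 by 1.97 ± 0.42, Htr2c by 1.14 ± 0.12 and Htr1f by 0.57 ± 0.25. The joined classes did not go together. Htr1f had medians of 327 CPM in NPY/Lamp5 and 55.9 CPM in VIP interneurons, the latter below PV (172) and SST (113). Htr4 and Htr2c had 179 and 214 CPM in VIP interneurons, while NPY/Lamp5 interneurons (26.8 and 30.1) lay below PV (34.3 and 69.6) and above SST (16.5 and 20.9). Htr1b, on 28 UMIs, was at 4.22, 7.11, 1.72, 0, 1.92 and 11.3 CPM in VIP with NPY/Lamp5 and at 1.0, 2.13, 0.946, 0, 0.888 and 4.2 CPM in PV with SST interneurons. It was higher in the former in the 5 libraries with a UMI and has no direction in SedGH of cohort 2, where both groups had 0. In edgeR all 6 tested genes were higher (12.9% of all genes, 12.4% lower), among them Htr4 (1.83 ± 0.14 SE, adjusted p = 2.79e-14) and Htr2a (0.60, adjusted p = 0.00332). Single libraries went against the call for 2 of them. Htr2a, whose medians were 124 CPM in NPY/Lamp5 and 0 in VIP interneurons, was at 37.3 against 51.8 CPM in SedGH of cohort 1, and Htr7 (0.57, adjusted p = 0.0279) was at 24.1 against 25.5 CPM in RunGH of cohort 2 and at 15.1 against 24.1 CPM in SedSI.

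**Figure D4:**
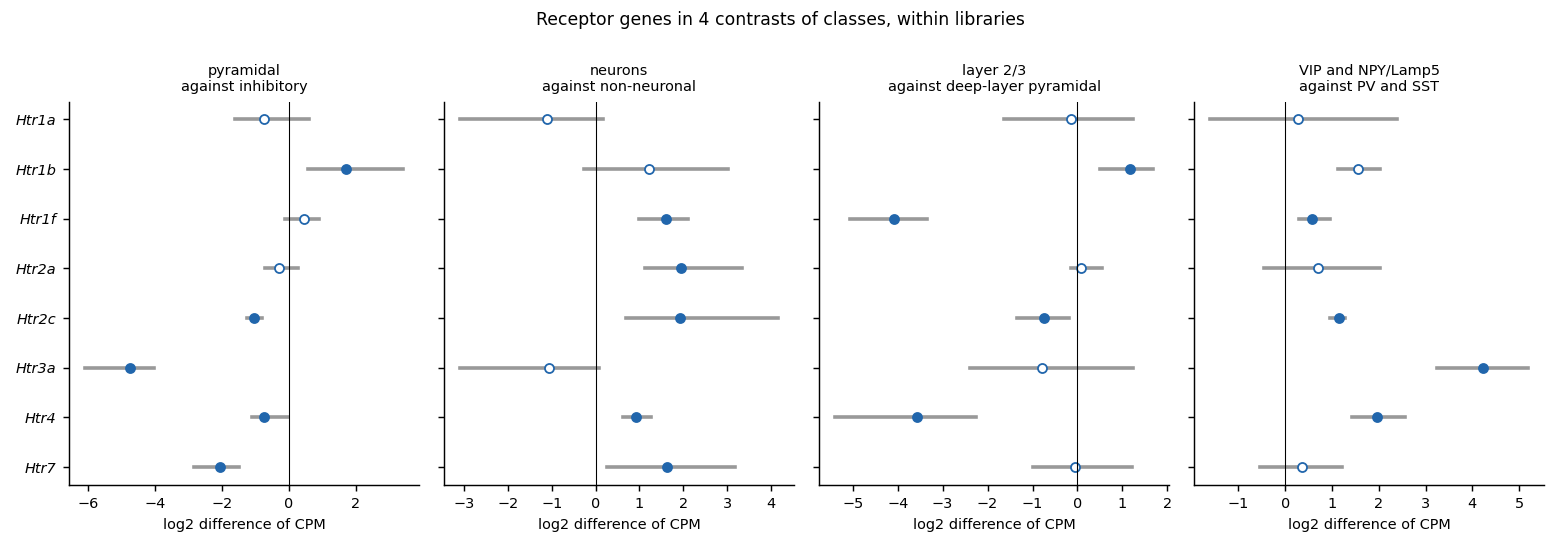
Difference of log2 CPM between 2 groups of classes for each receptor gene, as the mean (point) and range (grey line) of the libraries with a UMI of the gene in either group, with a line at 0. Filled points mark the 18 of 32 comparisons in which all 6 libraries lie on the same side, among them Htr3a between pyramidal and inhibitory nuclei (-4.76) and between interneuron classes (4.23). Htr1f and Htr4 between layers are drawn as measured, and only their direction is read.

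Genes with a class profile like that of a receptor were ranked by Pearson's r of log2 CPM over 83 class-by-library points and 12826 genes, as a description, since points share libraries, depth and clustering. Htr2c was most like Hrh2 (r = 0.797), a histamine receptor, and Vwc2l (0.793), a marker of the near-projecting class. Htr1f was most like Gabra5 (0.807), a GABA-A receptor subunit, and Nos1ap (0.781). Htr7 was most like Galntl6 (0.827) and A530058N18Rik (0.785), Htr2a like Rimbp2 (0.771) and Unc5d (0.768), and Htr4 like Lrch1 (0.72) and Tcerg1l (0.707), a marker of the Chst8 class. Htr1b was most like its antisense partner D430036J16Rik (0.666), which overlaps it in the genome, and then Ppp1r12a (0.604). Among the receptors themselves the highest correlation was that of Htr2c and Htr4 (0.65) and the lowest that of Htr1b and Htr4 (-0.48).

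The study asked how the mother's running and later isolation change the cells of the offspring, so Run was compared with Sed and SI with GH in 6 groups of nuclei. Summed counts were tested in edgeR over all genes with context (cohort 1 GH, cohort 2 GH, cohort 2 SI) and maternal environment as terms, which leaves 2 residual degrees of freedom. No receptor passed: 0 of 36 tests for the maternal term and 0 of 36 for housing had an adjusted p of 0.05 or less, and 8 and 2 had an unadjusted p under it. DESeq2 also called 0, with 1 and 0 at the unadjusted level. The unadjusted counts stand without the share of all genes at that level and are not read as a result. Over all genes, edgeR called 0% in pyramidal nuclei, 0.00692% in layer 2/3, 0.0202% in layer 5, 0.0274% in layer 6, 0.0694% in inhibitory nuclei and 0.129% in PV interneurons for the maternal term, and 0% in each for housing.

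The values by library pair, given in the plot of ratios, show where Run and Sed stood apart. Intervals on these log2 ratios are exact 95% intervals that cover counting error only, since each side is 1 library, and the Run to Sed and SI to GH ratios share libraries. Htr1f in inhibitory nuclei was at 154 and 197 CPM (RunGH and SedGH of cohort 1), 124 and 170.0 CPM (cohort 2) and 148 and 238 CPM (RunSI and SedSI). Run was lower in each pair, with log2 ratios of -0.36, -0.46 and -0.68, all beyond counting error. The 3 Run libraries did not overlap with the 3 Sed libraries. How many of all genes part in this way was not counted, here or below. The single classes did not all follow: in PV interneurons the ratios were -0.42, -0.54 and -0.06 (95% interval -0.41 to 0.31), and in NPY/Lamp5 interneurons -0.62, 0.05 (-0.58 to 0.72) and -0.91. Inhibitory nuclei without a named subtype, which occur in cohort 2 only, numbered 101, 44, 140 and 120 in RunGH, SedGH, RunSI and SedSI and stood at 221, 325, 344 and 566 CPM, and 120 such nuclei gave 200 of the 421 UMIs of SedSI. Over the named subtypes alone Htr1f was at 154, 197, 115, 155, 120 and 156 CPM, with log2 ratios of -0.36, -0.43 and -0.38, each beyond counting error, and the groups were just apart. The fitted difference was -0.52 ± 0.13 (SE), the smallest unadjusted p of any receptor for either term (0.000828), and missed the threshold with an adjusted p of 0.325 in edgeR.

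Htr1f in the corticothalamic class, where it is highest, was also lower in Run in 3 of 3 pairs, with log2 ratios of -0.11, -0.25 and -0.26, all beyond counting error. Its Run values (544 to 586 CPM) lay below its Sed values (631 to 672 CPM), and the fitted difference in layer 6 was -0.23 ± 0.09 (edgeR, adjusted p = 0.821). Htr2c in inhibitory nuclei went the other way, at 95.1 against 61.9, 95.8 against 83.6 and 127 against 94.9 CPM. All 3 pairs had more in Run (0.62, 0.20 and 0.42 on the log2 scale, the middle one within counting error), and the 3 Run libraries lay above the 3 Sed libraries by a narrow margin. Over the named subtypes the groups overlapped, and both ratios of cohort 2 (0.26 and 0.14) were within counting error. The fitted difference of 0.41 ± 0.14 had an adjusted p of 0.706 in edgeR. Htr4 in the corticothalamic class was at 17.0 against 9.19, 8.21 against 3.73 and 16.1 against 9.39 CPM. It was again more in Run in each pair, though the groups overlapped and layer 6 as a whole had an adjusted p of 0.804 in edgeR. The value of 3.73 CPM rests on 4 UMIs (95% interval 1.02 to 9.56). The class median, 9.29 CPM, lay just above that of astrocytes, 7.23 CPM, with overlapping ranges. Droplets without a nucleus held 21.8 against 23.8, 12.5 against 12.4 and 21.9 against 8.44 CPM of Htr4 in these pairs. Their part was not tested.

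Other receptors differed between pairs. Htr2c in near-projecting nuclei was higher in RunGH than SedGH of cohort 1 (log2 ratio 0.47, 95% interval 0.27 to 0.68) and within counting error in both pairs of cohort 2 (-0.09 and 0.11). Htr1f in all pyramidal nuclei was at 201 CPM in RunGH and 294 CPM in SedGH of cohort 1 (-0.55), with 646 of 6236 and 988 of 4094 pyramidal nuclei in the corticothalamic class. In cohort 2 the same ratio was 0.06 and 0.01. The part of the layer mix in the cohort 1 value was not tested, and within classes the ratio was -0.68 in layer 2/3, -0.12 in the mid-layer class, -0.22 in layer 5, -0.32 in layer 6 as a whole and -0.11 in its corticothalamic class.

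**Figure D5:**
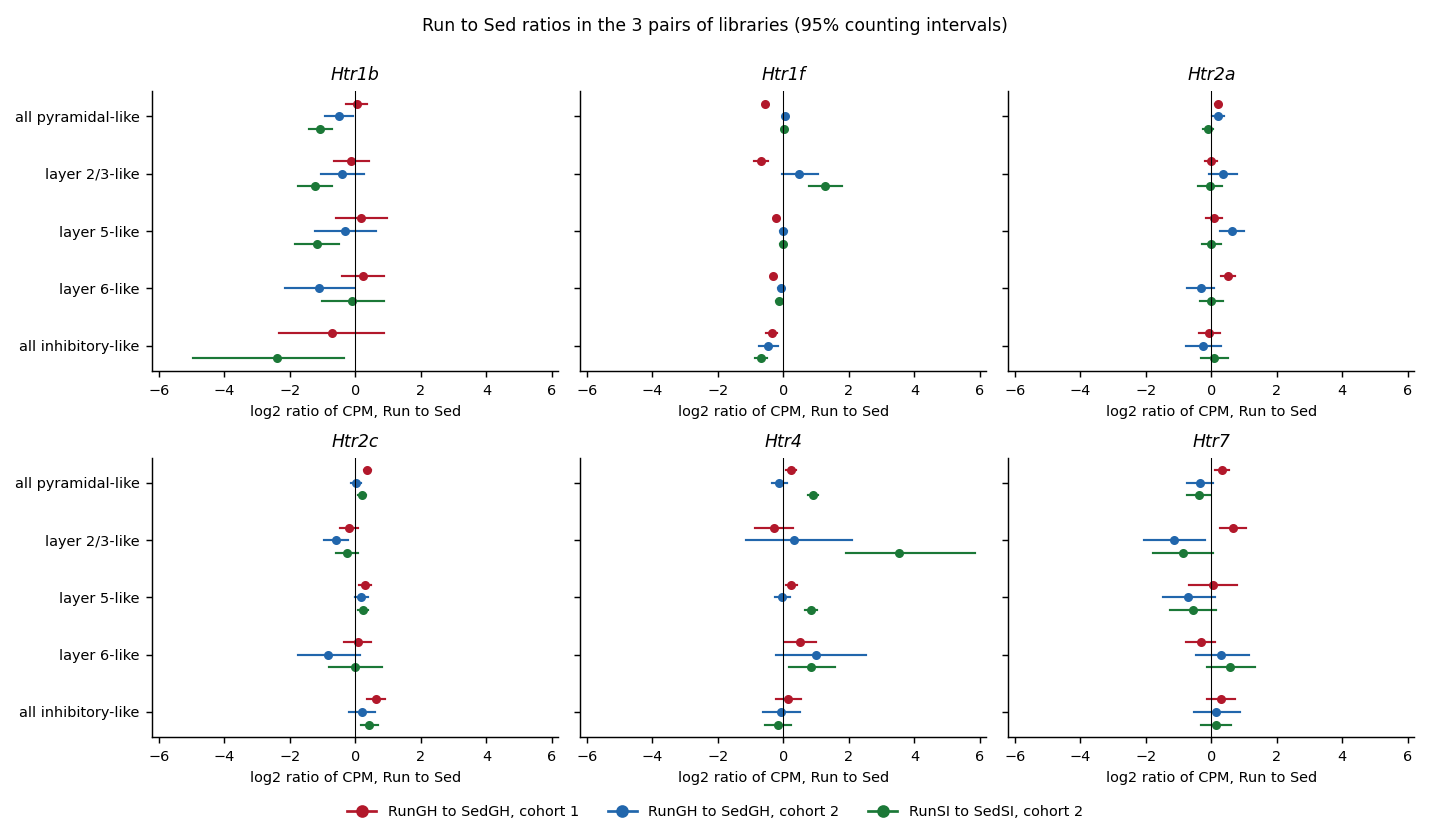
Log2 ratio of CPM between paired libraries (Run to Sed, 3 pairs) for 6 receptor genes in 5 groups of nuclei, with exact 95% intervals for counting error (lines) and a line at 0. Htr1f in inhibitory nuclei lies below 0 in all 3 pairs (-0.36, -0.46 and -0.68), and in layer 2/3 it lies below 0 in cohort 1 (-0.68) and above in both pairs of cohort 2 (0.49 and 1.26).

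Housing was followed by the ratios of SI to GH in cohort 2. In all pyramidal nuclei Htr4 stood at 22.6, 19.2, 21.7, 23.6, 41.5 and 22.2 CPM, so that RunSI lay above the other 5 libraries, which were close to each other. The log2 ratio of RunSI to RunGH was 0.94 (95% interval 0.80 to 1.07) and that of SedSI to SedGH was -0.09 (-0.33 to 0.15). In near-projecting nuclei the ratios were 0.94 (0.71 to 1.17) and 0.29 (-0.15 to 0.75), and in the Chst8 class they were 0.50 and -0.29. Inhibitory nuclei had 42.0 CPM in RunSI and 40.3 CPM in RunGH, a ratio within counting error. In the edgeR fit the housing term of Htr4 in pyramidal nuclei was 0.46 ± 0.24 with an adjusted p of 1. RunSI is 1 library, and droplets without a nucleus also held more Htr4 in it (21.9 CPM) than in the other libraries of cohort 2 (8.44 to 12.5 CPM).

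Htr1f had SI to GH ratios beyond counting error in both pairs in inhibitory nuclei, 0.26 (0.07 to 0.46) for Run and 0.49 (0.21 to 0.78) for Sed, with a housing term of 0.39 ± 0.16 (edgeR, adjusted p = 1). Over the named inhibitory subtypes these ratios were 0.06 (-0.16 to 0.28) and 0.01 (-0.32 to 0.35). In layer 5 Htr1f was lower in SI in both pairs, by -0.15 (-0.22 to -0.07) and -0.14 (-0.25 to -0.03), and the housing term of -0.14 ± 0.11 had an adjusted p of 1 in edgeR. Its classes differed, with ratios of -0.52 and -0.08 in the Deptor class, -0.10 and -0.15 in the Chst8 class, and 0.22 (-0.01 to 0.44) and 0.33 (-0.06 to 0.73) in near-projecting nuclei.

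In a fit of cohort 2 alone, the cohort with both kinds of housing, 1 of 36 receptor tests for housing passed in edgeR. At the unadjusted level 7 had a p under 0.05, a count likewise not read without the share of all genes. The test that passed is given next. It was Htr4 in layer 5 (0.43 ± 0.11, adjusted p = 0.0159, with 0.511% of all genes called), while Htr4 in pyramidal nuclei (0.52 ± 0.14) had an adjusted p of 0.0921. No receptor passed in pyramidal nuclei (0.275%), layer 2/3 (0.0518%), layer 6 (0.207%), inhibitory nuclei (0.0905%) or PV interneurons (0%). In layer 5 the ratio was 0.78 (0.63 to 0.93) for RunSI to RunGH and -0.10 (-0.36 to 0.16) for SedSI to SedGH. The fit of cohort 2 alone leaves 1 residual degree of freedom, which is this difference between the Run and Sed pairs. Layer 5 joins classes of unlike Htr4 level. Of its nuclei 723 of 2236, 581 of 1638, 930 of 2469 and 386 of 1278 were in the Chst8 class in RunGH, SedGH, RunSI and SedSI. Near-projecting nuclei numbered 385, 219, 426 and 192. The part of this mix was not tested.

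Cohort 1 and cohort 2 were then compared for GH libraries in pyramidal nuclei, a difference that carries behavioural testing, depth and free RNA together, which cannot be told apart. Over all genes 38.2% passed, and of 7 receptors tested 1 did: Htr2a, at 55.8 and 48.6 CPM in cohort 1 and 36.4, 31.6, 28.0 and 30 CPM in cohort 2. The cohorts did not overlap, and the fitted difference was -0.78 ± 0.14 (SE, adjusted p = 0.00777 in edgeR). The call was lost without the RunGH library of cohort 2 (-0.82, adjusted p = 0.055). The cohorts were also apart in layer 2/3, with 50.3 and 50.9 against 22.7 to 30.6 CPM, and in layer 5, with 36.4 and 34.3 against 21 to 32.5 CPM. They overlapped in layer 6, with 50.8 and 35.6 against 25.4 to 36.7 CPM, and inhibitory nuclei had 46.5 and 48.4 CPM in cohort 1 and 40.7 to 51.2 CPM in cohort 2. Htr7 differed by -0.75 ± 0.26 and did not pass (adjusted p = 0.0621).

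Whether the maternal effect was the same in both cohorts was tested with a term added after the data were seen, which leaves 1 residual degree of freedom. It comes from cohort 2 alone, since the libraries of cohort 1 are fitted exactly. The p-values of this term therefore hold no spread for the effect in cohort 1, which is 1 pair of pools. In pyramidal nuclei 3 of 7 receptors passed in edgeR (13.5% of all genes): Htr1b, whose effect in cohort 2 was lower by 0.98 on the log2 scale than in cohort 1 (adjusted p = 0.0243), Htr7, lower by 0.83 (0.0261), and Htr1f, higher by 0.46 (0.00589). For Htr1f the term was 1.46 within layer 2/3 (adjusted p = 0.000943), 0.06 within layer 5 (adjusted p = 0.85) and 0.11 within layer 6 (adjusted p = 0.796), and the part of the layer mix in the pyramidal term was not tested. In layer 2/3, 3 of 6 passed (5.08%): Htr1f, Htr4 (2.39, adjusted p = 0.0266) and Htr7 (-1.78, adjusted p = 0.00782). Htr1f and Htr4 are the genes whose share in layer 2/3 was not above that in astrocytes. Layer 6 gave 1 of 6 (6.81%), Htr2a at -0.78 (adjusted p = 0.0248). Layer 5 (8.57%), inhibitory nuclei (3.18%) and PV interneurons (1.17%) gave none.

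Behind these terms, Htr1f in layer 2/3 had log2 ratios of Run to Sed of -0.68, 0.49 and 1.26 in the 3 pairs. Htr1b in pyramidal nuclei had log2 ratios of Run to Sed of 0.04 in cohort 1 and -0.51 and -1.07 in cohort 2. Htr7 in layer 2/3 stood at 14.6 CPM in RunGH and 9.27 CPM in SedGH of cohort 1, and at 3.42, 7.58, 3.03 and 5.51 CPM in cohort 2, where both Run libraries were the lower of their pairs. Htr4 in layer 2/3 rests on few molecules, with 55 UMIs in RunSI and 3 in SedSI. Droplets without a nucleus also held more Htr4 in RunSI (21.9 CPM) than in SedSI (8.44 CPM). For Htr1f they held 137 against 191, 90.2 against 60.0 and 86.5 against 70.7 CPM in the Run to Sed pairs. Their part was not tested.

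When either library of cohort 1 was left out, the maternal term was estimated from cohort 2 alone, with 1 residual degree of freedom, and 10 receptor tests passed. With any library of cohort 2 left out instead, no receptor test passed for the maternal term. Without RunGH of cohort 1, 16.6% of all genes passed in pyramidal nuclei, among them Htr1b (-0.91, adjusted p = 9.46e-05) and Htr4 (0.35, adjusted p = 0.0226). In layer 2/3 (7.91%) Htr1b (-0.96), Htr1f (0.83), Htr2c (-0.52), Htr4 (2.13) and Htr7 (-1.09) passed, with the same limit on Htr1f and Htr4 in that class, and in layer 5 (11.4%) Htr1b (-0.92) and Htr4 (0.36). In inhibitory nuclei (3.4%) Htr1f passed at -0.63 (edgeR, adjusted p = 0.000138), the direction of all 3 pairs. That value includes the inhibitory nuclei without a named subtype. Over the named subtypes the log2 ratios of cohort 2 were -0.43 and -0.38. In layer 6 (6.92%) and PV interneurons (1.06%) no receptor passed. For housing, Htr4 passed in edgeR in pyramidal nuclei (0.52, adjusted p = 0.00441, with 0.447% of all genes) and in layer 5 (0.44, adjusted p = 0.0152, with 0.501%). No receptor passed for housing in layer 2/3 (0.0802%), layer 6 (0.375%), inhibitory nuclei (0.0958%) or PV interneurons (0%). These housing terms rest on the same libraries as the fit of cohort 2 alone, so the calls are not separate from it.

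The rest of the serotonin pathway was followed through 51 genes: 6 other receptors, 10 genes of synthesis, transport and breakdown, 9 G protein alpha subunits, 16 effectors, and 10 partners and regulators. None of those tested passed for the maternal term or for housing in any of the 6 groups of nuclei. Between cohorts in pyramidal nuclei, with 38.2% of all genes called in either direction, 11 of 16 effectors were lower in cohort 2 and none was higher. The share of all genes that were lower is not given, so the direction of these counts has no background beside it. The adenylyl cyclases Adcy5 (-1.37) and Adcy1 (-1.18) were among them, and the effectors had a median of -0.63. Of 9 alpha subunits 1 was higher (Gnai1, 0.45) and 2 lower (Gnao1, -0.85, and Gnaz, -0.47). Of 5 other receptors tested, Htr2b was higher (2.03) and Htr5a (-1.03) and Htr6 (-1.25) were lower. Of 10 partners 2 were higher, among them S100a10 (1.46), a binding partner of Htr1b and Htr4, and 3 lower, among them the arrestin gene Arrb1 (-1.24). Of 6 genes of synthesis, transport and breakdown tested, the vesicular transporter Slc18a2 (1.23) and Maoa (0.85), which breaks serotonin down, were higher.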

How the data were processed

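Single-nucleus libraries of PL from 6 pools of 3 mice were analysed, with groups taken from the labels. The authors deposited raw UMI counts of all barcodes, made per the labels with Cell Ranger 6.0.0 on mm10 (a file header names an older format, and the labels' extraction text names an RNA kit where the study describes nuclei). Intronic reads were included. Barcodes with 500 to 4000 genes, at most 1% mitochondrial UMIs and a per-library UMI minimum (620 to 3156) were kept. Nuclei were clustered per cohort without Htr genes (scanpy 1.11.5, 3000 genes, Pearson residuals, Leiden resolution 0.6), and classes were named from fixed markers by rules tuned after the clusters were seen. Layer 5 in the tests joins the Deptor, Chst8 and near-projecting classes, and layer 6 the corticothalamic, Oprk1 and layer 6b classes, of which layer 6b was found in cohort 2 alone. Doublet callers marked 1.44% to 7.44% of nuclei, which were kept in the values given and removed as an alternative.

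UMIs were summed per library and class, thinning used 1000 UMIs, and a pseudocount of 0.5 UMI was used on the log2 scale. Class differences were tested by exact sign flips over 6 libraries (64 flips), and conditions by edgeR 4.0.16 (quasi-likelihood, TMM, filterByExpr) with Benjamini-Hochberg adjustment over all genes tested, threshold 0.05; DESeq2 1.42.0 was an alternative. The tests were checked on simulated data. Intervals (95%, exact Poisson or binomial) and the floor of 3 counts cover counting error only. Alternatives were a gene minimum of 1000, no filter, doublet removal, background subtraction, log-normalized clustering, linear CPM, no block, cohort 2 alone and each library left out.

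All 8 receptors are named. Other genes named are those of a fixed serotonin pathway list that passed or mark serotonin neurons, and the 2 genes most like each receptor with at least 500 UMIs. The antisense genes that overlap a receptor and the neuronal markers Slc17a7 and Gad1 are named as well. The receptors and lists were chosen with earlier results of these data known.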

Additional observations from a re-analysis of the deposited data

Results flagged for a closer look

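Maternal effects that differed between cohorts, by the edgeR term added after the data were seen (effect of cohort 2 minus that of cohort 1, log2), were those of Htr1b (-0.98), Htr1f (0.46) and Htr7 (-0.83) in pyramidal nuclei, Htr1f (1.46), Htr4 (2.39) and Htr7 (-1.78) in layer 2/3, and Htr2a (-0.78) in layer 6. They rest on 1 residual degree of freedom, which comes from cohort 2 alone, and the effect in cohort 1 is 1 pair of pools. Cohort 1 also differs from cohort 2 in depth, in free RNA and in the choice of its animals by dominance rank, which cannot be told apart from cohort. In cohort 1, 646 of 6236 pyramidal nuclei of RunGH and 988 of 4094 of SedGH were in the corticothalamic class. The Htr1f term was 1.46 within layer 2/3, 0.06 within layer 5 (edgeR, adjusted p = 0.85) and 0.11 within layer 6 (adjusted p = 0.796), and the part of this mix in the pyramidal term was not tested.

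Over the 13 ranked classes and 4 groups of classes, there were 4 cases in which the ratio of cohort 1 was beyond counting error, both ratios of cohort 2 had the opposite sign and at least 1 of these was beyond counting error too. The change of sign of Htr4 in layer 2/3 (-0.30, 0.32 and 3.53) did not meet these conditions. Htr1f in layer 2/3 had log2 ratios of Run to Sed of -0.68 in cohort 1 (95% interval -0.90 to -0.46), 0.49 in the GH pair of cohort 2 (-0.05 to 1.07) and 1.26 in the SI pair (0.77 to 1.78). Htr7 in layer 2/3 had 0.65, -1.15 and -0.86, Htr7 in the mid-layer class had 0.56, -0.53 and -0.86, and Htr7 in all pyramidal nuclei had 0.33, -0.36 and -0.39. Droplets without a nucleus held 137 against 191, 90.2 against 60.0 and 86.5 against 70.7 CPM of Htr1f in these pairs. For Htr7 they held 11.4 against 10.5, 2.72 against 2.74 and 3.39 against 3.37 CPM. The part of free RNA in these ratios was not tested. Layer 2/3 is the class with the lowest Htr1f level of the 13 ranked, at 9.88 to 42.6 CPM, and its thinned shares of nuclei with Htr1f (median 1.98%) and with Htr4 (0.263%) were not above those of astrocytes (2.87% and 0.529%).

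Receptor UMIs were also present in nuclei whose clusters could not be named, which enter the comparison of all nuclei with droplets and no comparison of classes or conditions: 1636 of Htr1f, 573 of Htr2c, 350.0 of Htr2a, 217 of Htr4, 145 of Htr7, 54 of Htr1b, 11 of Htr3a and 4 of Htr1a. Doublet callers marked 10.3% to 57.3% of these nuclei, against 1.44% to 7.44% of all nuclei of a library.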

How the results depend on the processing

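No direction that passed a test was reversed under any alternative. Of the 8 receptors, 7 kept their top class under all 4 class settings (Htr1b did not), and the class with the highest detection was the same for 5 of 8 without thinning. Adjusted over the 32 receptor comparisons as planned, the exact test of class differences called 0. It still called 0 with each library left out, where it cannot go below 0.0625. After background subtraction it called 20, Htr1b in the interneuron contrast with 0 UMIs in 1 library included. Comparisons at the smallest p share 1 adjusted p and pass together, once enough of them reach it. The step from 0 to 20 therefore does not measure the effect of background subtraction. In edgeR with the library as replicate block 22 passed.

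Pairing by context is the block in the condition tests. Without the replicate block the maternal term called 0 genes in layer 2/3, layer 5, layer 6, inhibitory nuclei and PV interneurons (1, 3, 4, 9 and 13 with it), and no receptor in either fit. DESeq2 called 50 genes for the maternal term in pyramidal nuclei, 27 in layer 2/3, 25 in layer 5, 14 in layer 6 and 4 in PV interneurons. With no filter on low counts the maternal calls were 5, 90, 154, 77, 56 and 22 in pyramidal, layer 2/3, layer 5, layer 6, inhibitory and PV nuclei, and the housing calls 6 in layer 5, 14 in layer 6 and 12 in inhibitory nuclei. A minimum of 1000 genes gave 0 maternal calls in layer 2/3 and layer 5, doublet removal 0 in layer 6, and background subtraction 0 in layer 2/3, layer 5, layer 6 and inhibitory nuclei and 4 in PV. In cohort 2 alone housing called 47 pyramidal, 7 layer 2/3, 74 layer 5, 28 layer 6 and 11 inhibitory genes, Htr4 in layer 5 among them. The cause was not tested.

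Leaving out each library gave maternal calls of 0 to 3097 in pyramidal nuclei, 0 to 1184 in layer 2/3, 0 to 1713 in layer 5, 6 to 1053 in layer 6, 11 to 467 in inhibitory nuclei and 5 to 115 in PV interneurons. For housing they were 0 to 84, 0 to 12, 0 to 75, 0 to 57, 0 to 18 and 0 to 2, and for cohort 2664 to 9353 against 6860. The highest counts came without RunGH or SedGH of cohort 1 (3090 and 3097 pyramidal maternal calls), while those of housing in inhibitory and PV nuclei came without libraries of cohort 2. Leaving out any library leaves 1 residual degree of freedom and a lone partner library that adds nothing to the spread. Why the counts differ between these fits was not tested. Depth limits Htr1a and Htr3a, with under 140 UMIs each.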

Other observations

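Of the 6 other serotonin receptor genes, Htr2b gave 1178 UMIs in nuclei, Htr6 693, Htr5a 419, Htr5b 97, Htr1d 79 and Htr3b 7. Htr2b stood at a median of 7.26 CPM in pyramidal and 6.91 CPM in inhibitory nuclei, with libraries from 1.24 to 14.7 and from 2.24 to 18.7 CPM. Htr6 had medians of 2.99 and 1.46 CPM. Htr1d, a Gi/o-coupled receptor, had 0.285 CPM in pyramidal nuclei (0.115 to 0.453) and 1.34 CPM in inhibitory nuclei (1.12 to 2.50), ranges that did not overlap. Maob, an enzyme of serotonin breakdown found in glia, had 47.8 CPM in non-neuronal nuclei (39.2 to 62.7) and 4.83 CPM in pyramidal nuclei (4.02 to 5.71), while Maoa had 26.9 and 22.5 CPM, with overlapping ranges. Ddc, the enzyme that forms serotonin from its precursor, had 10.0 CPM in non-neuronal nuclei (4.36 to 30.4) and 0.222 CPM in pyramidal nuclei (0.17 to 0.345), on 148 UMIs in all.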
